A study of Onthophagus taurus and Onthophagus nigriventris with 71 samples.

Results

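The probes described here were 120 of the 3840 on a custom beetle microarray. In developing outgrowths of Onthophagus taurus and Onthophagus nigriventris, horned dung beetles, their lowest mean log ratios were the largest on the array. For each probe the mean deposited log2 ratio was taken over 12 arrays each of O. taurus head, thorax and legs and over 19 arrays of O. nigriventris thorax. Probes were ranked by the lowest of these 4 means and the first 120 were kept, so the members were chosen by these 4 means, which are given as description, without a test. Each array set a focal tissue against a comparison tissue of the same sex and morph, from wild-type laboratory-reared pupae within 24 h of pupation, with tissue pooled from 4 individuals per dye. O. taurus contributed dorsal head epidermis, dorsal prothoracic epidermis and legs, each against dorsal abdominal epidermis, and central brain with optic lobes against subesophageal and thoracic ganglia. Each of these tissues was measured in females, large horned males and small sneaker males, with 4 arrays per group. O. nigriventris contributed prothoracic against abdominal epidermis in 7 female, 5 large male and 7 small male arrays. On 4 further arrays the head epidermis of large O. taurus males was hybridised directly against that of small males.

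Horned beetles build their horns as new outgrowths of the epidermis, in body regions where other insects have none, whereas legs are ancestral appendages. Large males of O. taurus carry adult head horns and fight, small males remain hornless and sneak matings, and males of O. nigriventris carry theirs on the thorax. The dorsal abdomen bears no outgrowth, which makes it the comparison tissue for all 3 outgrowing regions. In insect legs, patterning genes such as Distal-less, dachshund and homothorax mark territories along the appendage. Distal-less and homothorax are known to act in beetle horns as well.

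The deposited values did not state which tissue was the numerator, and focal over comparison was the likely direction from the wording of the design. A positive value then means more signal in the focal tissue, and every sign would turn if the direction were the other way. A positive ratio can come from more RNA in the outgrowth or less in the abdomen, and these cannot be told apart on arrays that hold both. In pooled tissue, fewer cells of a type and less RNA per cell cannot be told apart either. Of the 3840 probe names, 0 matched the table of 16956 O. taurus genes used here, so members are given by their identifiers and the tissues could not be checked against marker genes. Array medians over all probes lay between -0.17 and 0.17. The mean correlation of an array with the others of its group was 0.748 to 0.928 in the head, thorax and legs, but 0.158 to 0.440 in O. nigriventris thorax and 0.348 to 0.460 on the direct arrays. In the brain it was 0.319 for small male replicate 3 and at most 0.748 for any array. The count of members called in either direction in the brain is therefore also given without that array.

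The 120 members were part of a wider set of 1110 probes with all 4 means above 0, against 917 probes with all 4 means below 0. All 4 means exceeded 1 in 59 members and 2 in 15. The 3 members ranked last, OtP008-A07, OtL006-A01 and OtL005-H10, had lowest means of 0.67, 0.67 and 0.667. The 3 probes just outside, OtL019-H04, OtP001-E08 and OtP013-G02, had 0.667, 0.666 and 0.665, so the boundary fell within a continuous range. The weakest tissue was the legs for 41 members, O. nigriventris thorax for 38, O. taurus thorax for 28 and the head for 13. The strongest was the head for 75 members, the legs for 20, O. nigriventris thorax for 13 and O. taurus thorax for 12. The median member had a mean of 2.31 in the head, 1.32 in the thorax, 1.39 in the legs and 1.49 in O. nigriventris thorax, where the median of all probes was 0.06, 0.05, 0.06 and 0.01. Members were thus most often strongest in the head and weakest in the legs or in the second species. The tissues also differed in scale. Over all probes the SD of these means was 0.99 in the head, 0.80 in the thorax, 0.89 in the legs and 0.56 in O. nigriventris thorax. How far the order of the tissues follows this spread was not tested.

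Of the 120 members, 56 were positive on all 55 arrays that entered the rule, the median member was positive on 54, and the member with the fewest was positive on 47. These counts come from the arrays that chose the members and are a description. Probe names carry 1 of 2 prefixes, OtL and OtP, each on 1920 probes. There were 79 OtL and 41 OtP members, on 35 of the 40 plates and with at most 7 on a plate.

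**Figure D1:**
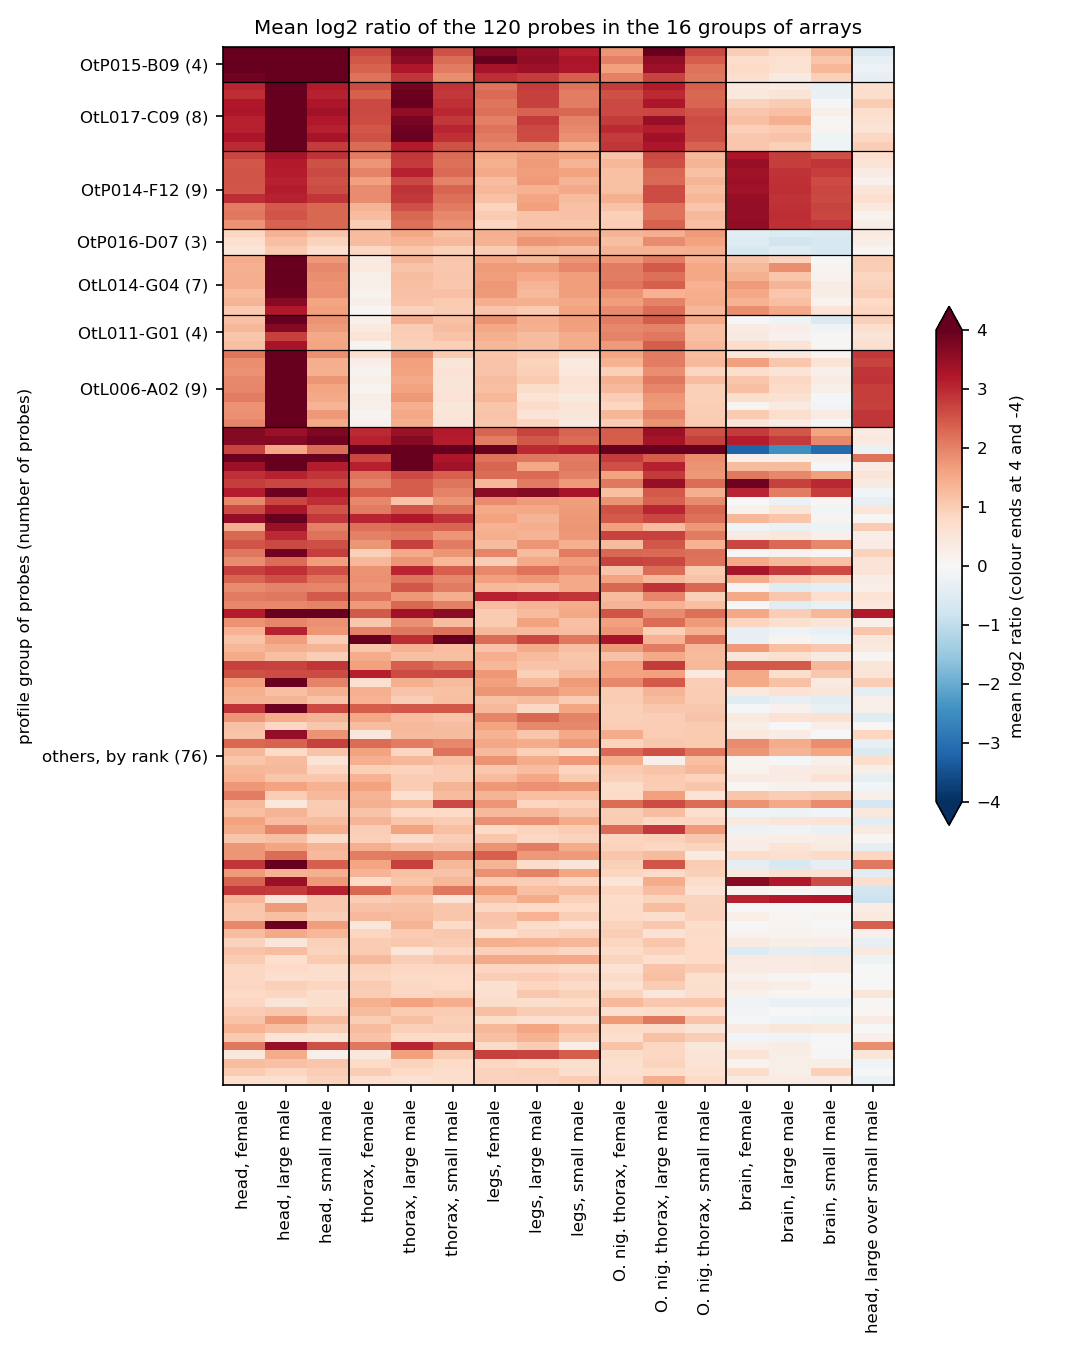
Mean log2 ratio (colour, red positive, blue negative) of the 120 probes (rows) in the 16 groups of arrays (columns). Rows are ordered by profile group, sets of probes with near-parallel values over the arrays, and then by rank. In the head, thorax, legs and O. nigriventris columns the rule fixes the sign of each mean over the 3 groups, not that of a single column. Single columns there can lie near 0, as in the female thorax, where the lowest probe of the OtL014-G04 profile group has 0.08. Brain means over the 12 arrays range from -2.91 to 3.22, and single brain columns reach beyond this range.

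OtP015-B09 ranked first. Its log2 ratio was 5.17, 4.37, 4.37 and 5.20 in female heads, 5.33, 5.51, 6.19 and 4.80 in large male heads, and 5.08, 5.14, 4.87 and 5.60 in small male heads. In the legs it was 3.86, 2.89, 3.91 and 4.08 in females, 3.95, 4.10, 2.57 and 3.26 in large males, and 3.91, 3.06, 2.0 and 3.49 in small males. The 12 head arrays lay above the 12 leg arrays, and within the head and within the legs the 3 groups overlapped. Thorax values were 3.10, 2.81, 2.23 and 2.48 in females, 4.01, 3.18, 4.01 and 3.74 in large males, and 2.51, 1.66, 2.14 and 3.87 in small males. There the large males lay above every female array and overlapped the small males. In O. nigriventris thorax the lowest, median and highest values were 0.38, 1.66 and 3.68 in 7 female arrays, and 1.37, 2.35 and 4.15 in 7 small male arrays. The 5 large male arrays of that species gave 3.33, 4.67, 4.35, 2.54 and 5.51, and the 3 groups overlapped. Its tissue means were 5.14 in the head, 2.98 in the thorax, 3.42 in the legs and 2.69 in O. nigriventris thorax.

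Behind it, OtP008-B09 had a lowest mean of 2.57, OtL011-G11 of 2.44 and OtL017-C09 of 2.37. Next came OtL016-H11 with 2.35, OtP001-C05 with 2.31 and OtP017-A05 with 2.31. OtL005-B02, OtL005-B12 and OtL011-B11 closed the first 10 with 2.28, 2.26 and 2.25. These 10 probes fell into 3 sets that moved together from array to array. OtP015-B09, OtP008-B09 and OtP001-C05 formed one, OtL011-G11 and OtL011-B11 another, and the other 5 belonged to a set led by OtL017-C09.

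Because many members moved together from array to array, they were joined into profile groups by average linkage of their correlation over the 71 arrays, at r of 0.9. The grouping was chosen after the values had been seen, and it is a description. It gave 78 profile groups: 66 members stood alone, 5 groups were pairs, and 7 groups of 3 or more held 44 members. Deviations from the group means correlated with a median r of 0.897 over 141 pairs of probes within a profile group, and of 0.149 over 6999 pairs in different profile groups. The points of these correlations share their arrays and RNA pools. Probes were joined by their correlation on the same arrays, so a higher r within profile groups follows from the grouping. The closest pairs were OtL014-G04 with OtL001-B03 at 0.977, OtL008-A05 with OtL001-B03 at 0.976 and OtL005-B12 with OtP007-G12 at 0.973. Whether probes of a profile group report the same gene was not tested, since no probe sequence was used here.

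The 7 larger profile groups differed in where they were strongest. The 4 probes around OtP015-B09 had a median mean of 4.80 in the head, 2.66 in the thorax, 3.37 in the legs and 2.44 in O. nigriventris thorax. The 8 probes around OtL017-C09 were more even, at 3.65, 3.09, 2.27 and 2.77 in the same order. The 9 probes around OtP014-F12 stood at 2.73, 2.26, 1.41 and 1.54, and they were also the strongest profile group in the brain, at 3.0. The 9 probes around OtL006-A02 stood at 2.76 in the head but at 0.76 in the thorax, 0.81 in the legs and 1.34 in O. nigriventris thorax. Head means also led in the 7 probes around OtL014-G04, with 2.41, 0.85, 1.55 and 1.77, and in the 4 around OtL011-G01, with 2.13, 0.88, 1.47 and 1.74. The 3 probes around OtP016-D07 were flat by comparison, at 0.94, 1.30, 1.49 and 1.52. High head means therefore came with quite different levels in the other outgrowths.

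A few members were dominated by another tissue. OtP003-G08 exceeded its other means by most in the O. taurus thorax, where its mean was 3.76, against 1.26 in the head, 2.34 in the legs and 2.38 in O. nigriventris thorax. Its thorax values were 5.64, 3.15, 5.46 and 1.65 in females, 4.67, 1.92, 3.05 and 2.17 in large males, and 5.47, 5.40, 5.50 and 1.09 in small males. Each group spanned over 2 log2 units and the groups overlapped, with replicate 4 the lowest in females and small males. OtP008-D05 was more even between arrays. Its thorax values were 4.52, 5.11, 5.40 and 5.42 in females, 5.18, 3.88, 4.40 and 5.21 in large males, and 3.74, 4.58, 5.08 and 5.62 in small males. The 3 groups overlapped, and its mean of 4.85 was the highest thorax mean of the 120. It was nearly as high in O. nigriventris thorax, at 4.33, with 3.36 in the legs and 2.16 in the head.

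In the legs, OtP009-F09 exceeded its other means by most. Its leg values were 2.04, 3.23, 2.60 and 3.05 in females, 2.79, 2.68, 3.14 and 2.23 in large males, and 2.15, 2.35, 2.66 and 2.54 in small males. Its leg mean of 2.62 set it apart from its head mean of 0.71, thorax mean of 1.02 and O. nigriventris mean of 0.68. OtL009-E01 followed, with 2.99 in the legs against 2.21, 1.77 and 1.33 in the head, thorax and O. nigriventris thorax. O. nigriventris led for OtP007-D10, with 2.28 there against a highest O. taurus mean of 1.55 in the thorax, and for OtL014-C09, with 2.22 against 1.63 in the head. In the head, OtP015-B09 and OtP015-E05 led by the widest margin, 1.71 and 1.65 above their next mean.

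**Figure D2:**
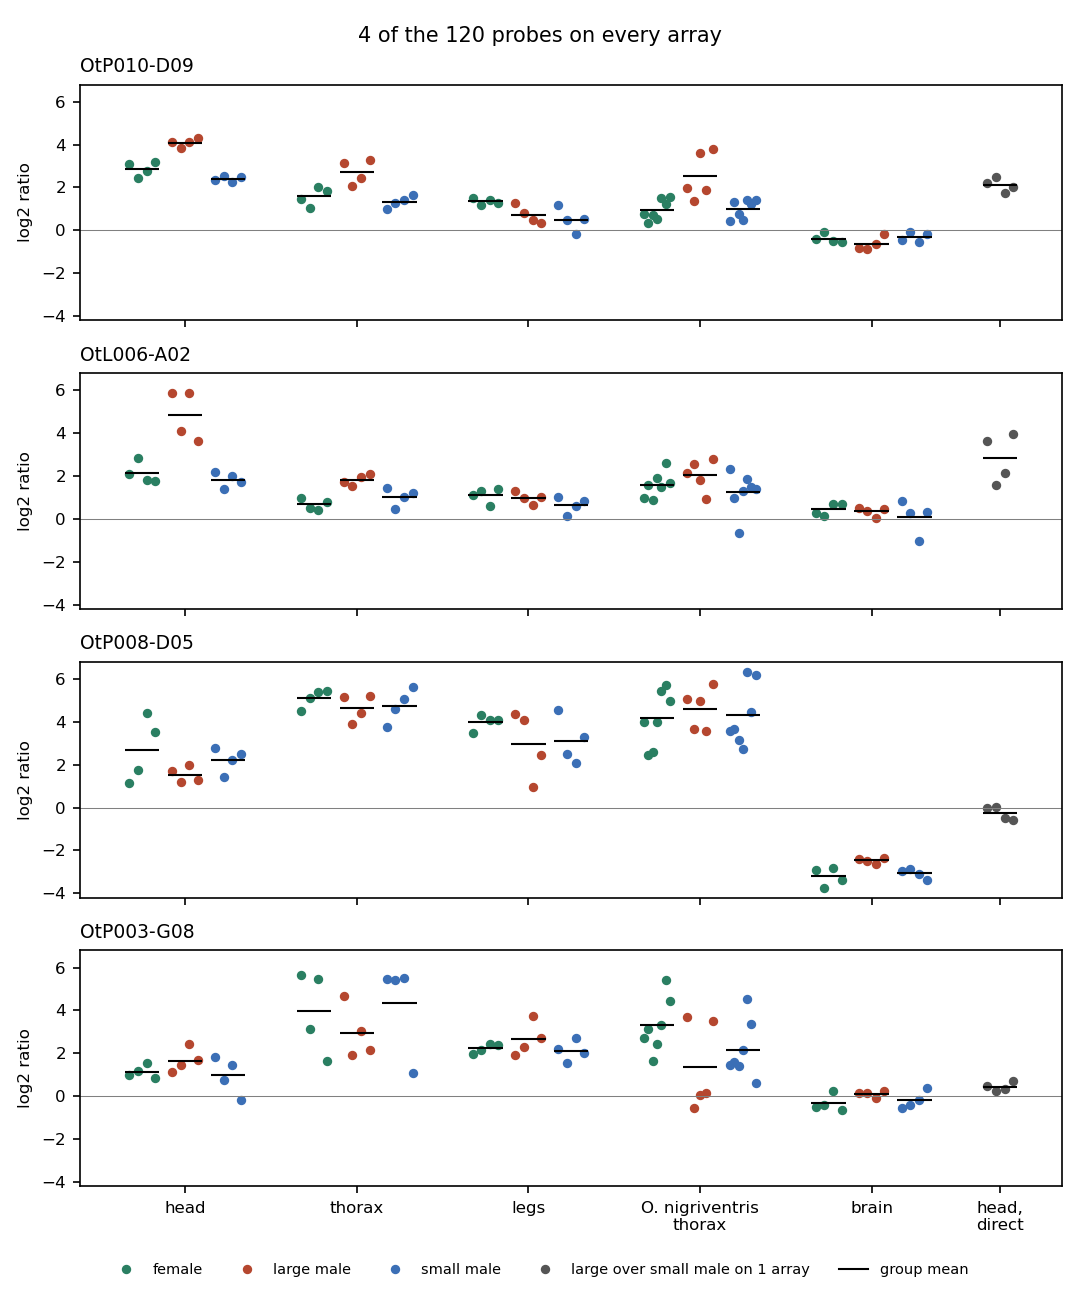
Log2 ratio (vertical axes) of OtP010-D09, OtL006-A02, OtP008-D05 and OtP003-G08 on every array, by tissue (horizontal axis), with females, large males and small males in separate colours and horizontal bars for group means. OtP010-D09 and OtL006-A02 are highest in large male heads. OtP008-D05 is highest in both thoraces and lies between -3.73 and -2.34 on the 12 brain arrays.

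The members were measured with more scatter than the array as a whole. The pooled SD between arrays of a group had a median of 0.740 over the members, with a range of 0.263 to 1.48, against a median of 0.468 over all probes. OtP010-A03 and OtP019-E12 were the steadiest members, with 0.263 and 0.298. OtL017-F01 and OtL016-H06 were the least steady, with 1.48 and 1.28. The head value of OtL017-F01 was 5.05, 9.34, 5.24 and 4.54 in large males, with replicate 2 far above the rest.

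The values were also split by dye orientation, which describes the arrays that chose the members and tests nothing. In the head, thorax and legs 120 of 120 had a positive mean on the arrays with focal RNA in Cy5 and also on those with focal RNA in Cy3. In O. nigriventris 118 of 120 were positive in both orientations, where only 944 of all 3840 probes were. The orientations differed by over 1 on the log2 scale in 7 members there, and in 619 of all probes.

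**Figure D3:**
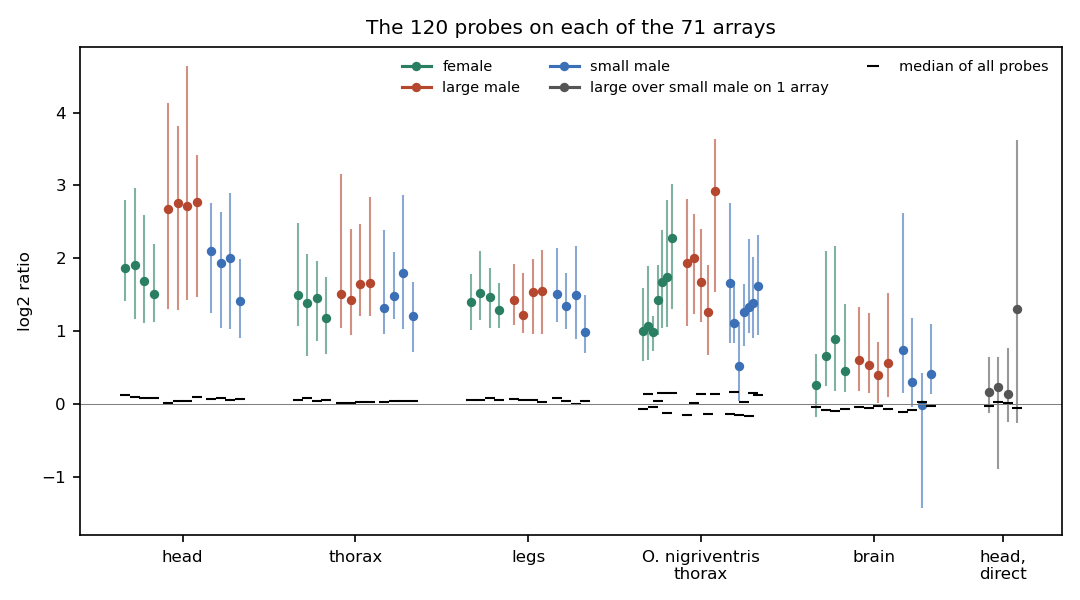
Median log2 ratio of the 120 probes on each array (points), with lines from the lower to the upper quartile, by tissue and by sex and morph (colours). Black ticks are the median of all 3840 probes on the same array. The 4 large male head arrays (2.68 to 2.77) lie above the female (1.51 to 1.91) and small male (1.41 to 2.10) head arrays.

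The brain arrays had no part in choosing the members and held no epidermis. Most members were positive there as well: the median member had a mean log2 ratio of 0.48, where the median of all probes was -0.06. By limma over all probes, 72 members were called positive, against 20.1% of all probes, and 10 were called negative, against 31.7% of all probes (adjusted p under 0.05). In either direction these were 82 members, against 51.8% of all probes, and 87 had an unadjusted p under 0.05, against 57.2%. The positive calls came from 46 profile groups and the negative calls from 7. Of the 120 members 99 had a brain mean above 0, compared with 40.3% of all probes. Means over 2 were found for 18 members among the 47 such probes on the array, and 9 of the 18 were the profile group of OtP014-F12. Without small male brain replicate 3, on which 58 members were positive, 89 members were called in either direction. The share of all probes in that fit is not given.

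**Figure D4:**
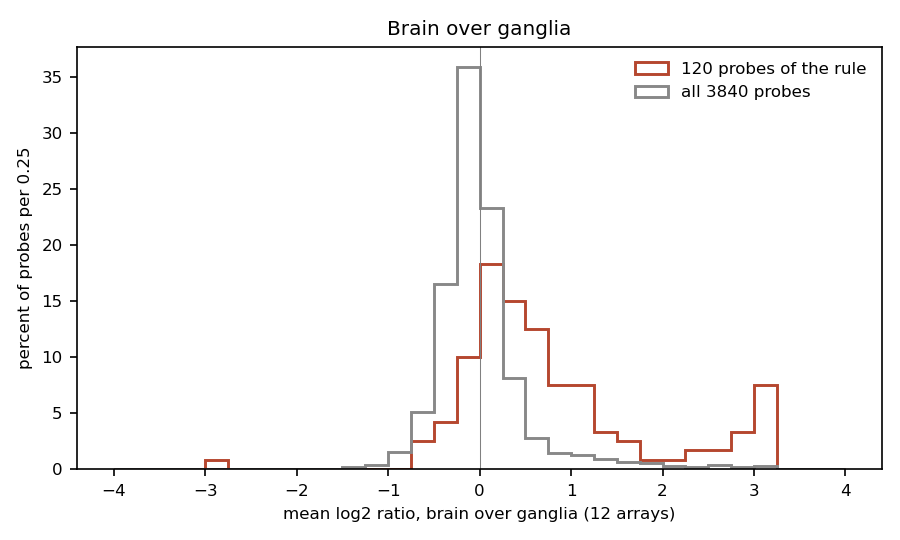
Distribution of the mean log2 ratio in the brain over ganglia (horizontal axis, bins of 0.25) for the 120 probes and for all 3840, as a percent of probes (vertical axis). The 120 lie further right, with a median of 0.48 against -0.06 for all probes, and 18 of them lie above 2.

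OtL013-A03, OtP008-C07 and OtL015-A11 had the highest brain means of the members. The brain values of OtP008-C07 were 1.81, 3.32, 3.91 and 3.27 in females, 3.48, 3.20, 3.27 and 2.88 in large males, and 2.69, 3.45, 3.18 and 3.63 in small males. These 12 arrays overlapped between groups and gave 3.17 ± 0.15 (SE, limma). Its outgrowth means ran from 0.83 in O. nigriventris thorax to 1.20 in the legs. Those are ratios to abdominal epidermis rather than to ganglia, so their size cannot be ranked against the brain value. OtL013-A03 varied more, with 1.13, 4.34, 5.23 and 4.88 in females, 3.90, 1.90, 0.82 and 4.31 in large males, and 4.73, 4.50, 0.42 and 2.44 in small males. Its mean was 3.22 ± 0.29 with all 12 arrays and 3.53 without small male brain replicate 3. OtL015-A11 had 3.16, 4.47, 3.83 and 3.04 in females, 3.20, 2.58, 3.23 and 3.84 in large males, and 4.49, 3.72, -1.23 and 3.45 in small males. Its single negative value lay on small male brain replicate 3. Its mean was 3.15 ± 0.25, and 3.58 without that array.

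Among the 10 negative members OtP008-D05 was far below the rest. It gave -2.93, -3.73, -2.83 and -3.36 in female brains, -2.39, -2.47, -2.64 and -2.34 in large male brains, and -2.96, -2.87, -3.09 and -3.35 in small male brains. All 12 values were negative, at -2.91 ± 0.23 (SE), in a probe whose outgrowth means were between 2.16 and 4.85. OtP002-A06 and OtP007-E04 followed at -0.63 ± 0.08 and -0.59 ± 0.07, and the rest lay between -0.51 and -0.16. They belong with OtP016-D07 to the profile group that was negative in the brain as a whole, with 3 of its 3 probes called. In the profile group of OtP015-B09 all 4 probes were called positive, with a median of 0.86. In that of OtL017-C09, 4 of 8 were called, with a median of 0.66.

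Large and small male heads differed at many members, and the calls all had one direction, except that a fit with the replicate number as a block called 29 members higher and 1 lower. By limma 28 members were called with higher ratios in large male heads, against 3.46% of all probes, and 0 with lower ratios, against 3.93% of all probes. Calls in either direction made up 7.4% of all probes. At an unadjusted p under 0.05 there were 50 members, against 19.9% of all probes. A probe high in large male heads also has a higher head mean, so the rule could favour this direction; by how much was not tested. The 28 came from 11 profile groups, and in 27 of the 28, called on these same arrays, the 2 groups of arrays did not overlap. The exception was OtL006-C12, at 0.73 ± 0.23. Among all 120 members the groups did not overlap in 34, against 8.98% of all probes. The median member was 0.39 higher in large male heads, where the median difference of all probes was -0.03. On single arrays the median over the members was 2.68 to 2.77 in large male heads and 1.41 to 2.10 in small male heads. The large male head arrays also had the wider spread over all probes, a mean SD of 1.17 against 0.988 in small males. When every array was scaled to one spread, 12 members were called, all of them among the 28.

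The profile group of OtL006-A02 showed the largest differences. OtL006-A02 itself was 5.88, 4.09, 5.88 and 3.63 in large male heads, against 2.19, 1.38, 2.01 and 1.74 in small male heads. The groups did not overlap and differed by 3.04 ± 0.34 (SE, limma adjusted p = 4.11e-08). All 9 probes of the group were called, with differences from 2.85 to 3.48. OtL006-B01 gave 3.48 ± 0.50, OtL016-F01 3.41 ± 0.53 and OtP001-D08 3.30 ± 0.38. These 3 were the largest of the 28, and 4 probes outside the 120 ran parallel to the group at r of 0.9. In the profile group of OtL014-G04, 6 of 7 probes were called, with a median difference of 2.13. In that of OtL011-G01, 4 of 4 were called, with a median of 1.86. In contrast, 0 of 4 were called around OtP015-B09, where the median difference was 0.03, 0 of 9 around OtP014-F12 and 0 of 8 around OtL017-C09, where it was 1.41 and the smallest adjusted p was 0.055. The call of OtL017-F01, at 2.91 ± 0.90, was lost in 5 of the 8 fits that left out 1 of these arrays, and without large male replicate 2 its difference was 1.89. In 19 of the 28 the call was kept whichever 1 of the 8 arrays was left out.

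The arrays that hybridised both male morphs directly held no abdomen and were not used by the rule. On them 28 of the 28 members were positive, large over small male, and 15 had an unadjusted p under 0.05. The same held for 133 and 90 of the 133 probes on the whole array called higher in large male heads, so the sign on the direct arrays was not particular to the members. Of the 120 members 29 had an unadjusted p under 0.05, against 18.1% of all probes. After adjustment 1 member passed, against 0.234% of all probes. The count was 47 without replicate 2, 0 without replicate 1, 3 or 4, and 8 without a dye term. The share of all probes called in these fits is not given, so the counts describe the stability of the calls only. OtL006-A02 was 3.65, 1.57, 2.14 and 3.96 on the 4 arrays, with a mean of 2.83 ± 0.47 and an adjusted p of 0.104. Its profile group had a median of 2.83 there, close to the 3.18 of the route through the abdomen. The profile group of OtL014-G04 had 0.91 on the direct arrays, against 2.13 by the other route. OtL011-G01 shows the spread behind such values, with 1.04, -2.40, 0.96 and 4.19 on the 4 arrays. Replicate 4 of these arrays had a median over the members of 1.31, whereas the other 3 had 0.14 to 0.24. Across the 28 the median was 2.25 by the indirect route and 1.02 on the direct arrays, and across the 133 it was 1.21 and 1.06.

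**Figure D5:**
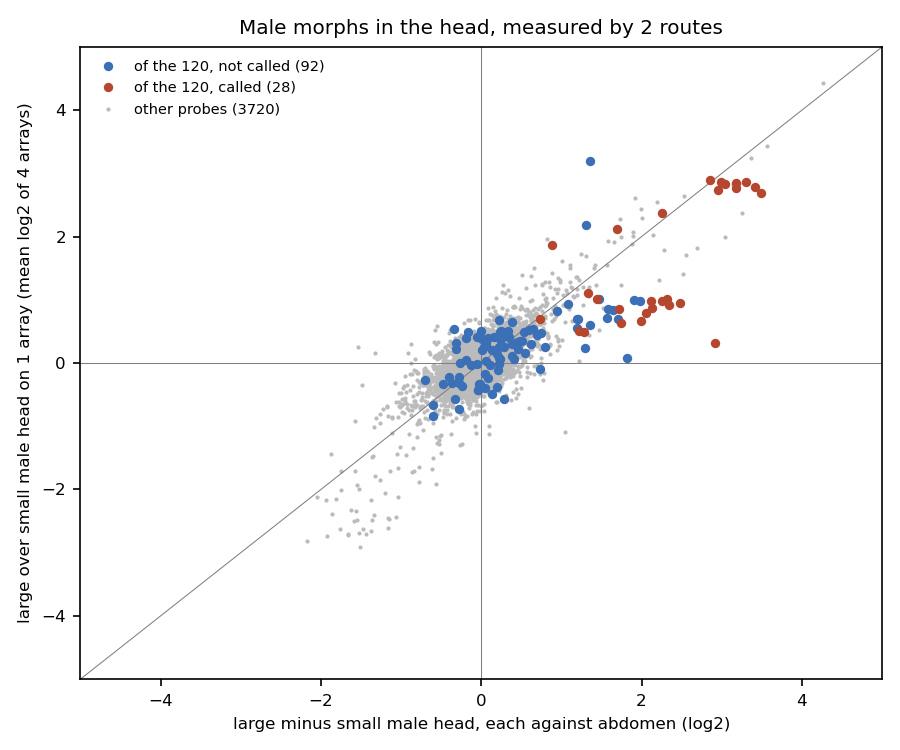
Large minus small male difference in the head, each against abdomen (horizontal axis, log2), against the mean log2 ratio on the 4 direct arrays, large over small male (vertical axis), for the 28 called probes of the 120, the rest of the 120 and all other probes. The diagonal marks equal values. All 28 called probes lie above 0 on both axes.

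Beyond the 28, OtL006-B07 had the highest direct mean of the members and was singled out after its values were seen. It was 3.09, 2.48, 2.27 and 4.93 on the direct arrays, with a mean of 3.19 ± 0.43 and an adjusted p of 0.089. Through the abdomen it was 6.17, 5.04, 5.94 and 4.84 in large male heads, against 5.08, 4.80, 4.86 and 1.81 in small male heads. The groups overlapped, differed by 1.36 ± 0.79, and did not pass.

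OtP010-D09 was the member that passed on the direct arrays, and the only one that passed between the morphs in the thorax. On the direct arrays it was 2.22, 2.50, 1.72 and 2.03, with a mean of 2.12 ± 0.16 (SE, limma adjusted p = 0.032). Its call was lost when replicate 1, 3 or 4 of these arrays was left out, with means from 1.99 to 2.24. In the head it was 4.10, 3.83, 4.10 and 4.31 in large males, against 2.33, 2.51, 2.24 and 2.47 in small males. The groups were far apart, with a difference of 1.70 ± 0.24 (adjusted p = 3.88e-06). In the thorax it was 3.13, 2.08, 2.45 and 3.27 in large males, against 0.97, 1.27, 1.39 and 1.64 in small males. Here too the groups did not overlap, and the difference was 1.41 ± 0.24 (adjusted p = 0.00371). It was the 1 member called in the thorax, against 0.026% of all probes, with 23 at an unadjusted p under 0.05, against 5.83%. This call was lost without large male thorax replicate 1 or 4 or small male replicate 1, with differences from 1.23 to 1.64, and in a fit of these groups alone.

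The same probe was not called between morphs in the legs or in O. nigriventris. In the legs OtP010-D09 was 1.27, 0.82, 0.48 and 0.35 in large males, against 1.17, 0.49, -0.18 and 0.51 in small males. The groups overlapped and differed by 0.24 ± 0.24. In O. nigriventris thorax it was 1.99, 1.35, 3.59, 1.90 and 3.81 in large males, against a lowest value of 0.45, a median of 1.24 and a highest of 1.43 in small males. These groups overlapped at a single large male array, and the difference of 1.50 ± 0.38 had an adjusted p of 0.431. In the brain over ganglia it was negative on all 12 arrays, at -0.44 ± 0.10, and was among the 10 members called negative there.

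By limma 0 members were called between the morphs in the legs, against 0% of all probes, with 9 at an unadjusted p under 0.05, against 6.12%. In the brain 0 were called, against 0.026% of all probes, with 3 at an unadjusted p under 0.05, against 2.63%. The 28 members of the head contrast had a median difference of 0.40 in the thorax and of -0.03 in the legs. Over the 133 probes called higher in large male heads these medians were 0.25 and 0.07, so low values outside the head were shared by probes called for a head difference. The test of the difference itself, whether the morph contrast varied between head, thorax and legs, called 16 members, against 1.09% of all probes, with 33 at an unadjusted p under 0.05, against 8.67%. All 9 of the profile group of OtL006-A02 were among them. With arrays scaled to one spread, 0 members passed, and with 1 array left out 5 to 18 did; 5 passed without large male head replicate 1 or without large male head replicate 3.

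OtL006-A02 and OtL004-H04 had the smallest adjusted p of this test, 0.00171 each. In the head OtL004-H04 was 4.43, 3.56, 4.87 and 2.79 in large males, against 2.06, 1.48, 1.88 and 1.22 in small males, with no overlap. In the thorax it was 1.33, 1.16, 1.53 and 1.43 in large males, against 1.01, 0.33, 1.06 and 0.63 in small males, again without overlap but much closer together. In the legs it was 0.85, 1.07, 0.24 and 0.79 in large males, against 1.13, 0.29, 0.35 and 0.56 in small males. The leg groups overlapped, and the 3 differences were 2.25, 0.60 and 0.15 on the log2 scale. OtL006-A02 showed the same order, with 3.04, 0.78 and 0.32, and OtP001-D08 followed with an adjusted p of 0.00315.

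Between the sexes, members were mostly lower in female heads than in the mean of both male groups. By limma 13 were lower, against 1.56% of all probes, and 1 was higher, against 0.99% of all probes. Calls in either direction made up 2.55% of all probes, and 42 members had an unadjusted p under 0.05, against 16.3%. A probe high in both male groups also has a higher head mean, so the rule could favour this direction. By how much was not tested. Since the male mean includes large males, this contrast shares arrays with the one between morphs, and 12 of the 14 members called here were also called there. With arrays scaled to one spread, 1 of the 14 was called, and 4 of the 14 kept the call whichever 1 array was left out. Female and male arrays were free of overlap in 0 of the 14. The same held for 0 of all 120 members, against 1.2% of all probes. Leaving out 1 head array gave 7 to 18, with 7 without female replicate 3, female replicate 4 or large male replicate 3.

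OtL011-G01 had the largest sex difference. It was 0.84, 1.68, 1.03 and 1.16 in female heads, against 4.14, 4.27, 5.24 and 3.48 in large male heads and 2.17, 1.89, 2.28 and 0.86 in small male heads. Females lay below all large males and overlapped 1 small male array, with a difference of -1.86 ± 0.40 (SE, limma adjusted p = 0.00621). OtL012-A07 was 1.17, 1.43, 1.13 and 0.89 in female heads, against 4.09, 3.09, 4.06 and 2.80 in large male heads and 1.82, 2.58, 2.0 and 0.79 in small male heads. Its pattern was the same, with -1.50 ± 0.31 (adjusted p = 0.00366), and OtL013-H09 followed with -1.38 ± 0.37. OtL013-H09 belongs to the profile group of OtL006-A02, of which 4 of 9 probes were called here. The median head mean of that group was 1.93 in females, 1.51 in small males and 4.76 in large males. By these medians its females lay below the large males but not below the small males. The call of OtL013-H09 was lost in 7 of the 12 fits without 1 head array, with scaled arrays and with only the groups compared. The 1 member higher in females, OtL014-E08, was 1.29, 0.85, 0.71 and 1.31 in female heads, against 0.27, 0.96, 0.52 and 0.27 in large male heads and 0.59, 0.37, 0.42 and 0.58 in small male heads. Females lay above all small males and overlapped 1 large male array, with a difference of 0.55 ± 0.15 (adjusted p = 0.0357). That call was lost in 7 of the 12 fits without 1 head array.

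Elsewhere the sexes gave no member past the threshold in limma. In the thorax 0 were called, against 2.11% of all probes, with 26 at an unadjusted p under 0.05, against 18.2%, and fits with another setting called 1 to 5. In the legs 0 were called, against 0.208% of all probes, with 4 at an unadjusted p under 0.05, against 12%. In the brain 0 were called, against 0% of all probes, with 4 at an unadjusted p under 0.05, against 2.94%.

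The 19 O. nigriventris arrays also helped choose the members, and a probe high in large males has a higher mean there, so the rule could favour that direction; by how much was not tested. By limma 0 were called in the thorax, against 0% of all probes, with 32 at an unadjusted p under 0.05, against 6.93%, of which 31 were positive. Of the 120 members 99 had a higher mean in large males, with a median difference of 0.57, compared with 50% of all probes above 0. The median over the members was 1.26 to 2.92 on single large male arrays and 0.52 to 1.65 on small male arrays, so the groups overlapped. The profile groups of OtP015-B09 and OtP014-F12 had median differences of 1.18 and 1.14, above the 0.81 of the OtL006-A02 group, which led in the head of O. taurus. Between females and males 0 members were called, against 0% of all probes, with 14 at an unadjusted p under 0.05, against 3.78%.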

How the data were processed

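The authors deposited 1 processed log ratio per probe and array, taken as log2 since limma, which works in log2, is named in the submitters' processing notes. For background correction, normalization and scanner settings the sources used here give nothing, and no spot intensities were used. Per the labels' protocols, RNA was column-purified, amplified from a T7 promoter, labelled with Cy5 or Cy3 and hybridised with dyes swapped within groups. The array was designed for O. taurus, and O. nigriventris RNA was hybridised to the same probes. Values of Cy3-focal arrays were printed with no more than 6 significant digits, while at least 99.1% of values on Cy5-focal arrays had more, so the deposited log2 values appear to have been turned to one direction already. No array was dropped and no value was missing.

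Members and lists were chosen with earlier results of these data known. limma 3.58.1 in R 4.3.3 (lmFit, eBayes) was fitted to all 3840 probes with a dye term, with Benjamini-Hochberg adjustment over all of them and calls at an adjusted p under 0.05. The 48 O. taurus arrays against a comparison tissue, the 4 direct arrays and the 19 O. nigriventris arrays were fitted separately. The test of the morph contrast between tissues was limma's moderated F. The scripts were tested on simulated data. Nothing in the labels says whether pools were reared separately. The p-values therefore cover the spread between these pools only, and their number limits the precision. Named probes were the 10 ranked first, the 3 on each side of the boundary, the called members of each contrast (all up to 5, otherwise the 3 largest in each direction), the 3 highest and lowest in the brain, 2 leaders per tissue, the 3 closest pairs and the 2 steadiest and least steady. Others were named after their values were seen, as examples of a profile group or a pattern. Planned marker and gene lists were not run because no probe was named.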

Additional observations from a re-analysis of the deposited data

Results flagged for a closer look

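In 12 of 272 groups of arrays tested, for the probes described in full and the median over the members, the highest or lowest array lay far outside the range of the others. Chance alone gives about 1 in 20 such groups. In the legs, OtL017-C09 was 3.77 on large male replicate 4, with the others at 2.42 to 2.51. OtP008-C07 was 2.93 on large male replicate 3, with the others at 0.92 to 1.10. OtL012-A07 was 0.51 on small male replicate 4, with the others at 1.75 to 1.93, and OtL014-E08 was 0.93 on female replicate 2, with the others at 1.28 to 1.34. In the thorax, OtP003-G08 was 1.09 on small male replicate 4, with the others at 5.40 to 5.50. OtL006-B07 was 1.29 on the same array, with the others at 4.30 to 4.51, and OtP009-F09 was -0.039 on female replicate 4, with the others at 0.53 to 0.64. In the head, OtL006-B07 was 1.81 on small male replicate 4, with the others at 4.80 to 5.08. OtL017-F01 was 9.34 on large male replicate 2, with the others at 4.54 to 5.24. In O. nigriventris thorax, OtL013-A03 was 3.80 on small male replicate 7, with the others at 1.55 to 2.49. On the direct arrays, OtP008-C07 was -1.30 on replicate 1, with the others at -0.72 to -0.67, and the median over the members was 1.31 on replicate 4, with the others at 0.14 to 0.24.

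The test of whether the difference between large and small males varied between head, thorax and legs called 16 members, against 1.09% of all probes. It was limma's F test, adjusted over all probes. Of the 16, 9 were the profile group of OtL006-A02. With arrays scaled to one spread 0 of the 16 were called, and 5 kept the call whichever 1 array was left out. The adjusted p was 0.00171 for OtL004-H04 and OtL006-A02, 0.00315 for OtP001-D08 and 0.0094 for OtP007-C11. It was 0.0111 for OtL013-H09, 0.0129 for OtP003-F12, 0.0134 for OtL018-F12, 0.0144 for OtL018-F10, 0.0145 for OtL011-D12 and 0.019 for OtL014-D11. OtP010-D09 had 0.0334, OtL006-B01, OtL011-G01, OtL012-A07 and OtL020-G08 had 0.0377, and OtL016-F01 had 0.0378.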

How the results depend on the processing

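Of the 120 members, 107 to 118 were chosen again with arrays centred or scaled, with medians over arrays, or with group or dye means weighted equally, and 114 to 120 with 1 array left out. A list of the 60 probes ranked first shares 60 with the 120 by construction. With each array scaled to one spread, 12 members were called between morphs in the head, 1 between morphs in the brain, 1 between sexes in the head, 2 between sexes in the thorax, and 0 for the morph contrast between tissues. With only the groups compared in the fit, 0 were called between morphs in the thorax, 5 between sexes in the thorax and 7 for the contrast between tissues. Centred arrays gave 1 between sexes in the thorax. Array weights gave 1 between sexes in the thorax and 3 in the legs. Without a dye term the direct arrays gave 8. Leaving out 1 array at a time gave 74 to 89 for the brain, 21 to 31 between morphs in the head, 0 to 1 between morphs in the thorax, 7 to 18 between sexes in the head, 0 to 1 between sexes in the thorax and in the legs, 5 to 18 for the contrast between tissues and 0 to 47 on the direct arrays. The causes were not tested. Counts from other settings and from fits with 1 array left out, here and above, are given without the share of all probes. With the replicate number as a block, 85 members were called in the brain, 30 between morphs in the head (29 higher and 1 lower), 14 between sexes in the head and 17 for the contrast between tissues, and no count moved by over 1.5 times. Whether the numbers pair arrays differed between groups. Between groups of 1 tissue, deviations of same-numbered arrays had a mean r of 0.042, 20 of 65 correlated best with their own number, and all pairs were over 0.1 in 2 of 15 comparisons. Those 2 were female with small male heads (0.23 to 0.59) and female with small male thoraces (0.19 to 0.44). Between head, thorax and legs of 1 sex or morph, the mean r was 0.232, 27 of 36 correlated best with their own number, and 4 of 9 comparisons had all pairs over 0.1. The block used 1 term per number over all groups, so it did not model a pairing within 1 sex or morph. The test of the morph contrast between tissues took these arrays as independent. Whether such pairing changes its calls was not tested. No named estimate changed sign. The grouping of profiles gave 59 groups at r of 0.8 and 99 at r of 0.95, alternatives chosen after seeing the data. Depth is not defined for these arrays, and signal over background was not used.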
